A study of Mus musculus with 48 samples.

Results

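The narrow loci described here are the 2920 methylated loci of 500 bp or less on chromosomes 1 to 19 of the mouse, out of 187695 loci in the table (1.56%). They were chosen by width alone, the end of a locus minus its start plus 1 base. Width is itself a result of the reads, since a locus is a stretch where reads piled up into a peak in some library, joined with the peaks that overlapped it in the others. Width and read count therefore come from the same reads, and levels by width are given as a description with no test. The 108 loci of 500 bp or less on the X and Y chromosomes were not included.

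The DNA came from the amygdala, a forebrain region that processes emotion, of 4-month-old male C57BL/6 mice (C57BL/6N by the study's methods) that had gone through behavioural tests. The mice carried constitutively inactivated Tph2 on both alleles (Tph2-/-), on 1 allele (Tph2+/-) or on neither (Tph2+/+), and in each genotype pups underwent daily maternal separation (MS) of 3 h between postnatal days 2 and 15, or stayed with the dam as controls (C). This gave 6 groups of 8 mice with 1 library each, written as the genotype followed by C or MS. The tissue was a homogenate of both hemispheres, so the cell types of a mouse were pooled, and a change in cell types cannot be told apart from a change in methylation within a type. Sample numbers S18 to S41 were all MS, and the C libraries were S1 to S17 and S42 to S48, so MS and sample order cannot be told apart.

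Tph2 encodes tryptophan hydroxylase 2, which catalyses the rate-limiting step of serotonin synthesis in neurons. Cytosine methylation in mammals sits mostly at CpG dinucleotides, and methyl-CpG-binding domain (MBD) proteins hold DNA more firmly the more methylated CpGs a fragment carries. In MBD sequencing, sheared DNA is captured by such a domain and the bound fragments are read, so that the count at a locus rises with its methylation, its number of CpGs and its length.

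Windows of 300 bases from the middle of 4 narrow loci show what kinds of sequence they hold (RefSeq sequence of GRCm38, plus strand, 5′ to 3′). The first 3 are the narrowest locus, in an intron of Btrc (chr19:45465516-45465815), the locus with the most reads per kb, between genes and nearest to Cyp3a41b (chr5:145545097-145545396), and the locus with the most CpGs, in a coding exon of Aph1a (chr3:95893965-95894264). Capitals mark CpG in these.
Btrc: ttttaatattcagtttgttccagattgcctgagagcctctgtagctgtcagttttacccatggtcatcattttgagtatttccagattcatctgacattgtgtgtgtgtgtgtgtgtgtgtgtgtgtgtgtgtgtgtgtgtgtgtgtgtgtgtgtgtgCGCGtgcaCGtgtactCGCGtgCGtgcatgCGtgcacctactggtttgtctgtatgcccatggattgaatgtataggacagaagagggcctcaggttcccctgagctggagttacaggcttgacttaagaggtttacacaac
Cyp3a41b: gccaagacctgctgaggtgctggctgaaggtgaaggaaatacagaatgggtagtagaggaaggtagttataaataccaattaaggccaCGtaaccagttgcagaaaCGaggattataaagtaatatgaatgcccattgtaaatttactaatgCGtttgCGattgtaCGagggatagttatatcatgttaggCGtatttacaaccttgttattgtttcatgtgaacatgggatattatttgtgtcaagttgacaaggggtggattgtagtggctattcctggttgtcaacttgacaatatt
Aph1a: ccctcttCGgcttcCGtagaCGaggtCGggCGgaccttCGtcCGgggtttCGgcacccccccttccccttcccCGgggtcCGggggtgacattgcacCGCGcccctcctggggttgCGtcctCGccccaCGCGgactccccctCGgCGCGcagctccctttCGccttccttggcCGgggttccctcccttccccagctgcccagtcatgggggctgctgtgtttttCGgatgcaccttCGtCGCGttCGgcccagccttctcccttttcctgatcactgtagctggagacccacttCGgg
The Btrc and Cyp3a41b windows hold 7 and 6 CpGs, near the usual number, and the Aph1a window holds 27. Btrc encodes an F-box protein that brings substrates such as beta-catenin to a ubiquitin ligase, Cyp3a41b a cytochrome P450, and Aph1a a subunit of gamma-secretase.

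The last window contains no CpG at all. It lies between genes, nearest to the pseudogene Gm11500 (chr11:92491804-92492103), and holds CA repeats. Capitals mark runs of 10 or more CA.
Gm11500: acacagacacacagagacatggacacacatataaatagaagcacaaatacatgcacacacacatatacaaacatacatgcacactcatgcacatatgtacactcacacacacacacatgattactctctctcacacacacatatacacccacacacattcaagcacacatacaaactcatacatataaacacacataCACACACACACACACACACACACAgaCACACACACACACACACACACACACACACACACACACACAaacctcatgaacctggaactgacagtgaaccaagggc
The longest CA run in this window is 40 bases. The locus recurs below as the one with the smallest p of any group comparison.

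The width of the narrow loci ran from 331 to 500 bp, with quartiles of 442, 468 and 486 bp, so most lay near the upper limit. The narrowest after Btrc, of 331 bp, were one of 332 bp 203 bp from Nedd8, which encodes a ubiquitin-like protein (chr14:55661729-55662060), and one of 341 bp in an intron of Astn2, an astrotactin of neuronal migration (chr4:65511033-65511373). Nothing changed at the limit itself: 522 loci of 491 to 500 bp had a median of 14.4 counts per library and 650 loci of over 500 to 510 bp one of 14.8. On the scale per kb the medians were 2.64 CPM (counts per mega count of the library total) per kb on both sides.

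Read numbers at narrow loci were low and very alike. The mean count of a narrow locus had a median of 14.1 per library, with 5th and 95th percentiles of 11.3 and 16.7, against medians of 17.7 at over 500 to 750 bp, 24.7 at over 750 to 1000 bp, 44.9 at over 1000 to 2000 bp and 130.4 over 2000 bp. Of the 2920 loci, 2865 averaged 10 to 18 counts, 33 averaged under 10, and single values ran from 0 to 66. A count of 0 was found in 774 of 140160 values (0.552%), spread over 647 loci. Library totals over all loci were 7.72 to 14.1 Mcounts (mega counts), with a mean of 10.7 ± 1.4 Mcounts (SD, n = 48).

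Per kb the narrow loci stood above the next wider ones. The median over loci was 2.77 CPM per kb at narrow loci, 2.47 at over 500 to 750 bp, 2.59 at over 750 to 1000 bp, 3.18 at over 1000 to 2000 bp and 4.21 over 2000 bp. By library, the median was 2.67 ± 0.123 CPM per kb at narrow loci and 2.40 ± 0.138 at over 500 to 750 bp (SD, n = 46), and it was higher at narrow loci in 48 of 48 libraries. Within the narrow loci it fell with width, from 3.11 at 331 to 400 bp through 2.92 at 401 to 450 bp to 2.70 at 451 to 500 bp. Median counts moved little over the same steps, from 13.2 through 13.9 to 14.3, so the level per kb was high where a near-constant number of reads was divided by a smaller width.

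**Figure D1:**
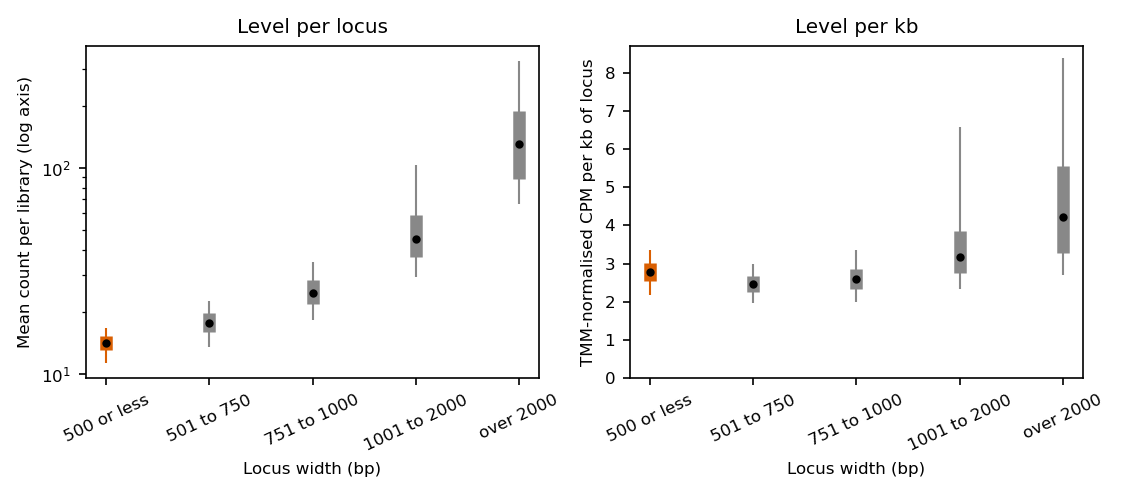
Read level by width of the locus, on chromosomes 1 to 19, from the 46 libraries of the fits. The median count per library rose from 14.1 at narrow loci to 130.4 over 2000 bp. The median level per kb fell from 2.77 CPM per kb at narrow loci to 2.47 at over 500 to 750 bp. It then rose to 4.21 CPM per kb over 2000 bp.

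The highest levels per kb were 4.05 CPM per kb near Cyp3a41b, 4.03 in an intron of the N-glycan glycosyltransferase gene Mgat4c (chr10:102032577-102032981) and 4.01 near the small nuclear RNA gene Gm22336 (chr8:85318798-85319157). The Cyp3a41b locus was 100% repeat-masked and had 49 other copies in the assembly, with at least 95% identity over at least 50% of its length, so its reads cannot be placed with certainty. The lowest levels were 0.766 CPM per kb in an intron of Lrp1b, a receptor gene of the low-density lipoprotein receptor family, 0.784 in an intron of Ppp2r2b (chr18:42913787-42914152) and 1.08 near the pseudogene AC139334.2 (chr18:7033563-7033941). All 3 of these lowest loci carry repeats of the hexamer CCCTAA.

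In position, the narrow loci stood farther from other loci, and a smaller share of them lay in exons (described with no test). The distance to the nearest other locus had a median of 3563 bp, against 2483, 2078, 1605 and 1144 bp in the 4 wider classes in order of width. Another locus lay within 1000 bp of 24.3% of narrow loci and of 46.9% of loci over 2000 bp. Between genes lay 1369 narrow loci (46.9%), in introns 1070 (36.6%), in coding exons 349 (12%), in other exons 86 and in untranslated regions 46 (1.58%). The share in coding exons rose through the wider classes, from 14.1% at over 500 to 750 bp to 25.5% over 2000 bp. Within 1000 bp of a transcription start lay 3.77% of narrow loci, against 4.11 to 6.38% of wider ones.

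Narrow loci were spread over all 19 autosomes. They numbered 87 on chromosome 19 to 227 on chromosome 2, which is 10.01 to 14.2 per 10 Mb and 1.35 to 1.92% of the loci of a chromosome. Inside annotated genes lay 1551 narrow loci (53.1%), in 1183 protein-coding genes. Only 2 genes held 5 or more, Gm20388 with 12 and Fgfr2 with 5 in the annotation used, and these annotated spans were 4434.9 and 2960.9 kb long.

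In sequence the narrow loci were poorer in GC and richer in repeats than loci of over 500 to 1000 bp. Median GC was 45.3%, against 46.2% at over 500 to 750 bp and 48.7% over 2000 bp. A median of 27.8% of a narrow locus was repeat-masked, against 20.6% at over 500 to 750 bp, 21.3% at over 750 to 1000 bp and 35.4% over 2000 bp. Other copies of the locus were found for 7.5% of narrow loci, and 99 loci had 10 or more.

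A narrow locus held a median of 8 CpGs, against 11, 15, 25 and 63 in the wider classes, and 1.71 CpGs per 100 bp against 1.62, 1.68, 2.00 and 2.30. The median levels moved little with the number of CpGs. Since 2865 of the 2920 narrow loci averaged 10 to 18 counts, they had little room to differ, so this says little about capture. The median was 1.27 CPM in the 38 narrow loci with no CpG, 1.22 CPM in the 190 with 1 or 2, 1.32 CPM in the 510 with 11 to 15 and 1.25 CPM in the 37 with 16 to 35. Across loci, Spearman's rho between CpGs per 100 bp and CPM per kb was 0.23 at narrow loci (n = 2920), 0.19 at over 500 to 750 bp and 0.73 over 2000 bp (n = 11552). Both axes share the width, and loci are not independent replicates.

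The 38 narrow loci with no CpG were 1.30% of the class, against 0.502, 0.135, 0.0430 and 0.0173% of the wider classes. Of these 38, 33 had at least 1 CpG within 250 bp on either side. The motif (CA)10, that is CA repeated 10 times in tandem or TG on the other strand, was found in 24 of the 38 (63.2%), in 53.8% of the 452 with 1 to 4 CpGs and in 13.5% of the 2430 with 5 or more. Over all widths the shares were close: 20.4% of narrow loci and 17.4, 17.6, 18.6 and 18.4% of the wider classes held this motif, with longer windows to search in the wider classes.

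CCCTAA at least 2 times in tandem, or TTAGGG on the other strand, was found in 8 narrow loci (0.274%) and in 0.0565, 0.0507, 0.0602 and 0.0779% of the wider classes. The motif was looked for after the counts of Lama1 and Lrp1b had been seen. The 8 loci were in introns of Lama1, which encodes the laminin alpha 1 chain of basement membranes, of Lrp1b, and of Tmcc3os (chr10:94592294-94592661) and Ppp2r2b, the latter encoding a regulatory subunit of protein phosphatase 2A, in an exon of the noncoding 4921504E06Rik (chr2:19509092-19509543), and between genes nearest to AC139334.2, Gm11922 (chr4:31354037-31354412) and Gm48801 (chr9:27212958-27213425). They hold 0 to 4 CpGs each, and none had another copy in the assembly by the limits above. Those limits apply to a large part of a locus, so they cannot show whether single reads within the repeats were placed with certainty. The placing of the reads at these loci was not tested.

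On the mean over these 8 loci a pair of Tph2-/- MS libraries, replicates 2 and 3, was far above the rest, and replicate 7 was just above the highest of the others. The mean over the 8 loci was 5.63 CPM in Tph2-/- MS replicate 3, 4.01 CPM in replicate 2 and 1.60 CPM in replicate 7, and 0.611 ± 0.302 CPM in the other 45 libraries (SD, range 0.216 to 1.53). Groups without these 3 libraries overlapped widely, with means of 0.587 ± 0.365 CPM in C and 0.855 ± 0.369 CPM in MS for Tph2+/+. For Tph2+/- the means were 0.446 ± 0.147 CPM in C and 0.603 ± 0.253 CPM in MS, and for Tph2-/- they were 0.507 ± 0.188 CPM in C and 0.705 ± 0.335 CPM in the other 5 MS libraries.

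The counts of single loci mostly show the same libraries. Lama1 had 66, 54 and 34 counts in Tph2-/- MS replicates 2, 3 and 7, and 2 to 37 with a median of 12 in the other 45 libraries. Ppp2r2b had 26, 22 and 10 counts in these 3 and 0 to 8 in the others. Lrp1b had 26, 20 and 8 counts, against 0 to 22 in the others, where the 22 stood in Tph2+/+ C replicate 1. Exceptions were Gm48801, with 18, 30 and 8 counts against 2 to 32 with a median of 12, and replicate 7 at 4921504E06Rik, with 7 against 0 to 24. Replicate 3 had a low total, and by CPM it ranked first at 7 of the 8 loci, with replicate 2 first at the other.

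**Figure D2:**
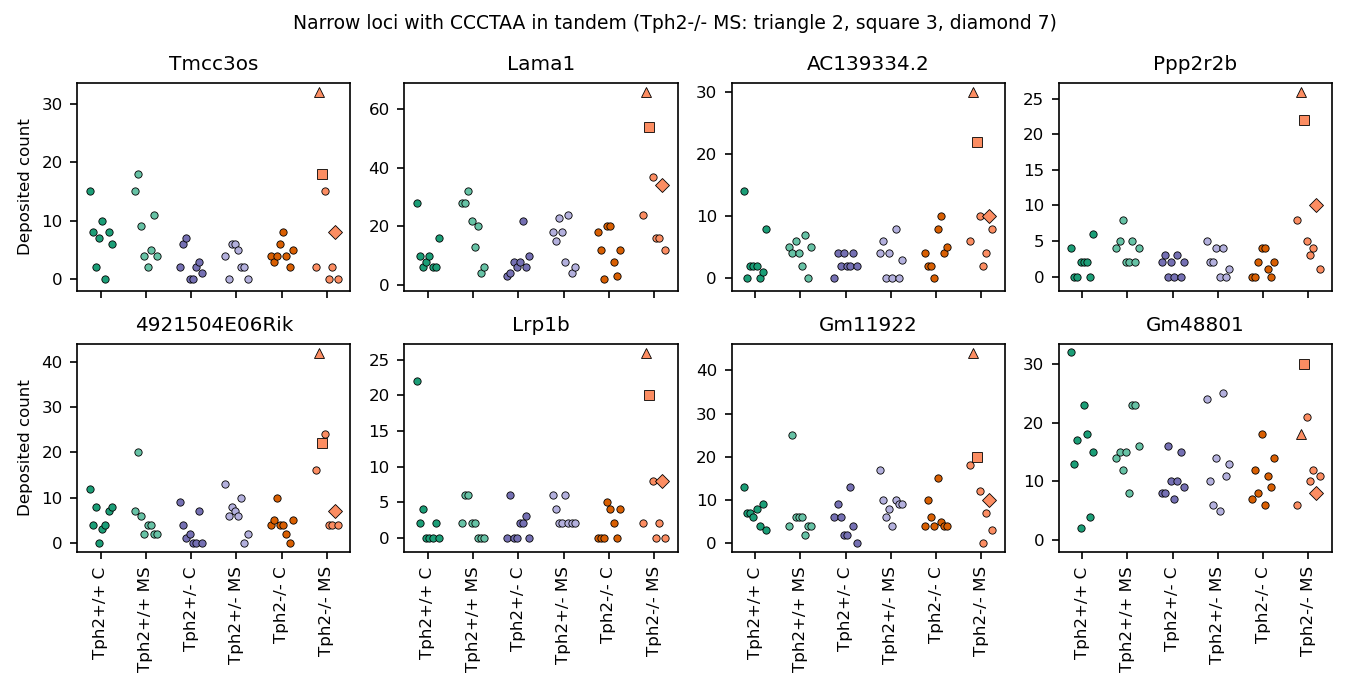
Deposited count, not scaled by library total, at each of the 8 narrow loci with CCCTAA repeats, with 1 point per library. Tph2-/- MS replicates 2, 3 and 7 are marked apart from the other 45 libraries, and replicates 2 and 3 lie above most or all others at each locus.

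The motif and these 3 libraries were chosen after the data were seen, so their rank at the CCCTAA loci is no independent support. The highest level was in 1 of the 3 at 8 of 8 CCCTAA loci (never replicate 7). The same held at 21.1% of the 596 narrow loci with (CA)10 and at 9.76% of the 2316 with neither motif. Whatever the motif, Tph2-/- MS replicates 2 and 3 were highest at 9.35% of narrow loci. In the wider classes the shares were 7.12, 13.1, 32.6 and 60.9% in order of width, so this was common at wide loci. Wider loci with CCCTAA were high in replicates 2 and 3 too. At over 500 to 750 bp (25 loci) the mean was 4.85 CPM in replicate 3 and 3.39 CPM in replicate 2, against 1.42 ± 0.230 CPM in the other 45. At the 2316 narrow loci with neither motif the means were 0.956, 1.05 and 1.16 CPM in replicates 3, 2 and 7, against 1.28 ± 0.0585 CPM in the others. Replicates 3 and 7 had the lowest total counts of their group and were left out of the fits below. The part of library quality in these values was not tested.

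The share of a library's counts that fell in narrow loci was 0.178 to 0.422%, with a mean of 0.372 ± 0.0435% (SD, n = 48). The lowest shares were 0.178% in Tph2-/- MS replicate 3, 0.259% in Tph2-/- MS replicate 2, 0.286% in Tph2+/+ MS replicate 1 and 0.311% in Tph2-/- MS replicate 7. For Tph2+/+ the group means were 0.396 ± 0.0141% in C and 0.355 ± 0.0351% in MS (n = 8 per group here). For Tph2+/- they were 0.381 ± 0.0223 and 0.382 ± 0.0242%, and for Tph2-/- 0.388 ± 0.0180 and 0.330 ± 0.0796%. S18 to S26, all MS, averaged 0.320 ± 0.0687%, with single values from 0.178 to 0.410%. Without them the MS means were 0.372% for Tph2+/+, 0.383% for Tph2+/- and 0.374% for Tph2-/-. Those of Tph2+/+ and Tph2-/- were still below their C means. This run holds the lowest shares, so leaving it out had to raise these 2 means. The part of sample order was not tested.

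**Figure D3:**
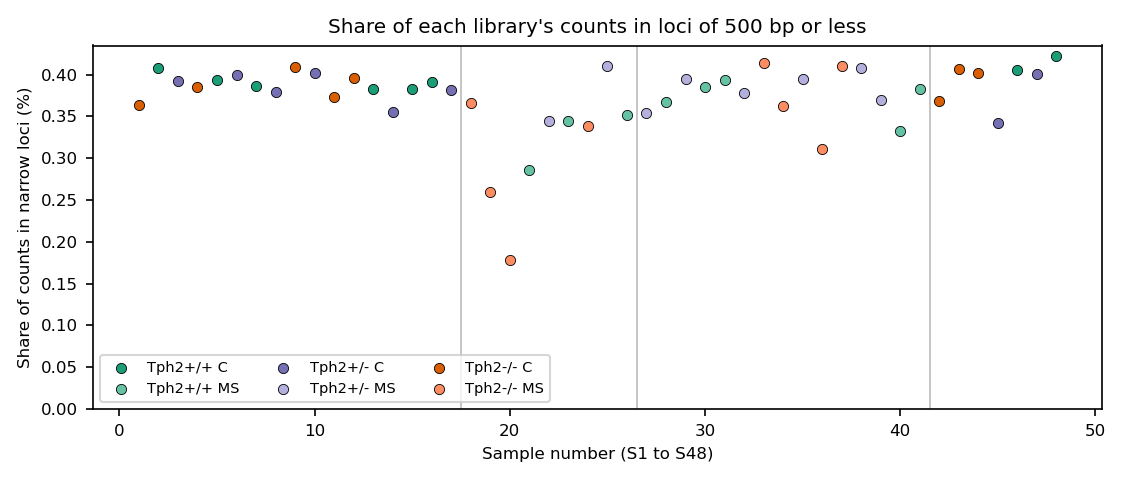
Share of all counts that fell in narrow loci, in percent, 1 point per library, by sample number and coloured by group. Tph2-/- MS holds the lowest value of 0.178% and, at 0.0796%, the widest SD of the 6 groups.

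The 4 libraries with the lowest shares did not share 1 pattern over the number of CpGs. In Tph2-/- MS replicate 3, narrow loci with 0 to 4 CpGs were at 113% of the mean of the other libraries, those with 5 to 8 CpGs at 73.6% and those with 9 or more at 83.6%. In the other libraries the corresponding ranges were 84.2 to 118%, 79.5 to 108% and 90.8 to 106.5%, so the drop was outside their range from 5 CpGs upward and within it below. Tph2-/- MS replicate 2 was at 97.3, 79.6 and 91.7% in the same bins, Tph2+/+ MS replicate 1 at 117.7, 86.6 and 91.5%, and Tph2-/- MS replicate 7 at 85.0, 90.9 and 97.7%. The first 3 of these libraries were lower at 5 or more CpGs than below, and Tph2-/- MS replicate 7 was lowest at 0 to 4 CpGs. Tph2-/- MS replicate 3 also had a count of 0 at 376 narrow loci, the most of any library.

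Counts at narrow loci tended to be even numbers, which made up 56.9 to 83.3% of the nonzero values of a library, against 55.0 to 75.98% over all loci. Mates of 1 fragment that are both counted are not independent. At the median count, sampling alone gives a coefficient of variation of 26.6% if each count is independent, and of 37.7% if all come in pairs.

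The spread between mice of a group, given here as a description, was larger at narrow loci than at wider ones. The within-group SD of log2(CPM + 0.5) had a median of 0.425 at narrow loci, against 0.405, 0.368, 0.314 and 0.232 in the wider classes, and the coefficient of variation 39.7% against 35.4, 30.2, 24.1 and 17.1%. By group the median SD at narrow loci was 0.372 in Tph2+/+ C to 0.428 in Tph2+/+ MS. At equal counts the order turned round: among loci with 14 to 16 counts the median SD was 0.410 at narrow loci, 0.432 at over 500 to 750 bp and 0.456 at over 750 to 1000 bp, and among loci with 16 to 18 counts 0.378, 0.411 and 0.433. In these bands the narrow loci had more CpGs per 100 bp, 1.81 against 1.52 and 1.30 at 14 to 16 counts. The part of CpG density in this was not tested.

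The most variable narrow loci were Lama1 with an SD of 0.67, the locus nearest to AC144861.1 (chr18:85596781-85597276) with 0.64 and Tmcc3os with 0.63. Without the 3 Tph2-/- MS libraries named above, the SD at Lama1 was 0.63 and at Tmcc3os 0.53. The least variable were 14759 bp from the arylamine N-acetyltransferase gene Nat3 (chr8:67563386-67563867), with an SD of 0.24, in an intron of C1qtnf1, which encodes a secreted C1q-related protein (chr11:118440140-118440574), with 0.25, and in an intron of the zinc transporter gene Slc39a11 (chr11:113510791-113511261), with 0.27. The CpG-rich Aph1a exon (chr3:95893908-95894322, 35 CpGs), named after its values were seen, averaged 1.12 CPM with an SD of 0.62.

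Group differences were tested in 8 contrasts on 46 libraries with edgeR's quasi-likelihood test over all 187695 loci, 8 libraries per group and 6 in Tph2-/- MS. GE1 is the MS effect in Tph2+/- minus that in Tph2+/+, and GE2 the MS effect in Tph2-/- minus that in Tph2+/+. The others are the MS effect averaged over the genotypes and in each genotype, and Tph2-/- and Tph2+/- against Tph2+/+, averaged over C and MS. A locus was called at an unadjusted p under 0.01 with a log2 fold change beyond 0.2, the limits of the study. The contrasts share groups, so their counts are not independent.

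No narrow locus passed a Benjamini-Hochberg adjusted p of 0.05 in any of the 8 contrasts with edgeR, against 50 loci of the whole table in at least 1 contrast (0.0266%). DESeq2 and limma voom also gave 0 narrow loci. At an unadjusted p under 0.05, edgeR gave 97 to 201 narrow loci per contrast, the 97 in Tph2-/- against Tph2+/+ (3.32%, against 4.08% of all loci) and the 201 for MS over genotypes (6.88%, against 12.2% of all loci). In at least 1 contrast 154 narrow loci were called (5.27%), below the 7.52% of all loci.

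By contrast, the calls were few and at or below the share over all loci, with 1 exception. GE1 gave 15 narrow loci (0.514%, against 0.626% of all loci) and GE2 14 (0.479%, against 0.558%). Tph2-/- against Tph2+/+ gave 18 (0.616%, against 0.748%), and Tph2+/- against Tph2+/+ also 18 (0.616%, against 0.546%), the exception. For Tph2-/- against Tph2+/+, data simulated with no change gave 1782 calls in 187495 loci, more than the 1404 in 187695 loci here. For MS the calls were 52 over genotypes (1.78%, against 3.63%), 33 in Tph2+/+ (1.13%, against 1.31%), 17 in Tph2+/- (0.582%, against 0.779%) and 28 in Tph2-/- (0.959%, against 1.48%).

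The SE of a narrow locus was larger, with a median of 0.18 for MS over genotypes and 0.43 for GE1, against 0.13 and 0.30 over all loci. The 154 called loci were like the rest in width, with a median of 468 bp in both. They held a median of 7 CpGs against 8, and 11 of them lay within 1000 bp of a transcription start (7.14%, against 3.58% of those not called).

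**Figure D4:**
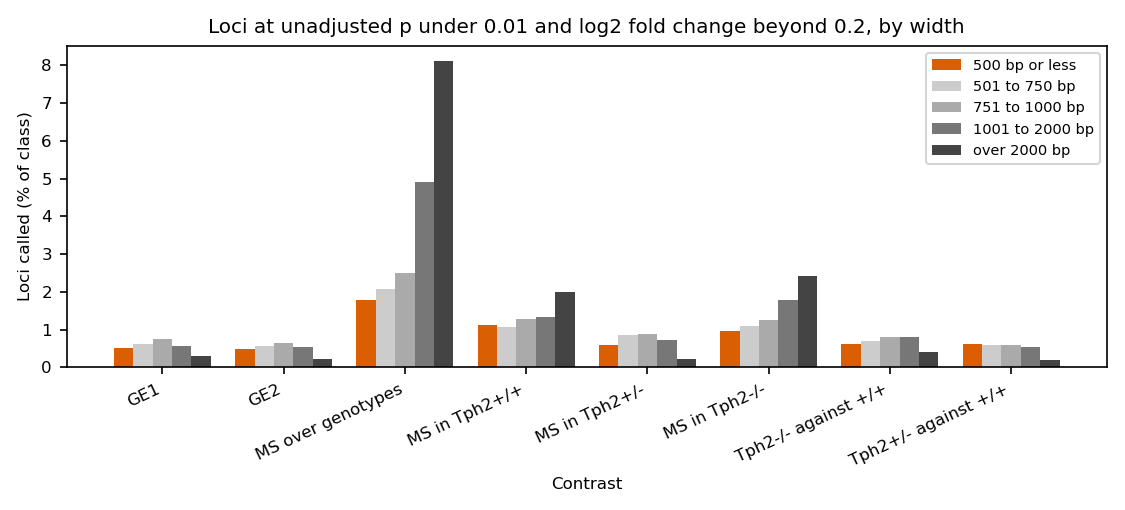
Percent of loci called in each contrast, by width class of the locus. For MS over genotypes the percent called rose from 1.78% at narrow loci to 8.12% over 2000 bp, while for GE1 it was 0.514% at narrow loci and 0.303% over 2000 bp.

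The MS calls at narrow loci were mostly lower in MS. Over genotypes 39 of 52 were lower, in Tph2+/+ 25 of 33, in Tph2+/- 13 of 17 and in Tph2-/- 21 of 28. Called and lower were 1.35% of all loci over genotypes, 0.643% in Tph2+/+, 0.458% in Tph2+/- and 0.632% in Tph2-/-. The 39, 25, 13 and 21 lower calls among 2920 narrow loci were near these shares, or above in Tph2+/+. Called and higher were 13, 8, 4 and 7 of the 2920, against 4284, 1258, 602 and 1582 of all 187695 loci. The latter are larger shares in each contrast, so narrow loci differed from all loci mainly in having few higher calls. This was not particular to narrow loci. At over 500 to 750 bp, 917 of 44246 loci were called for MS over genotypes, and a larger part of these calls was lower than at narrow loci. Of the calls for MS over genotypes, 75% were lower at narrow loci, 83.6% at over 500 to 750 bp, 62.0% at over 750 to 1000 bp, 21.1% at over 1000 to 2000 bp and 8.96% over 2000 bp. The median log2 difference, MS against C, moved the same way, from -0.05 at narrow loci and -0.05 at over 500 to 750 bp to 0.09 over 2000 bp.

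This direction depended on the scaling of the libraries. With an offset that removes trends with abundance, 28.6% of the calls for MS over genotypes were lower, 39.3% in Tph2+/+, 50.0% in Tph2+/- and 29.03% in Tph2-/-, and the median difference for MS over genotypes at narrow loci was 0.03. With total counts alone the shares were 85.5, 95.2, 58.3 and 89.2%, with an offset on CpG density 61.5, 72.4, 64.7 and 64.0%. Total counts alone moved the median log2 difference of all loci to -0.11 for MS in Tph2+/+ and to 0.15 for GE1. Without S18 to S26, 27 narrow loci were called for MS over genotypes (63.0% lower) and 15 in Tph2-/- (33.3% lower). That fit held only replicates 5, 6 and 8 of Tph2-/- MS, and 5 Tph2+/+ MS and 6 Tph2+/- MS libraries.

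Of all contrasts the smallest p at a narrow locus was that of GE2 near Gm11500 (chr11:92491733-92492175), 277856 bp from this pseudogene and made of CA repeats without a CpG. The lowest, median and highest levels were 0.587, 1.01 and 1.42 CPM in Tph2+/+ C and 0.729, 1.56 and 3.04 CPM in Tph2+/+ MS. They were 0.784, 1.31 and 2.36 CPM in Tph2-/- C and 0.407, 0.593 and 0.834 CPM in the 6 libraries of Tph2-/- MS. The levels were thus higher in MS than in C in Tph2+/+ mice and lower in Tph2-/- mice, with overlap in both. The log2 difference of the MS effects was -1.97 (SE 0.46, edgeR unadjusted p = 3.52e-05, adjusted p = 1.0).

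The smallest adjusted p was that of MS over genotypes in an exon of the long noncoding RNA Gm17768 (chr7:43077868-43078365). In Tph2+/+ the lowest, median and highest levels were 0.803, 1.93 and 2.44 CPM in C and 0.202, 1.08 and 2.28 CPM in MS. In Tph2+/- they were 0.551, 1.63 and 3.04 CPM in C and 0.510, 1.14 and 1.55 CPM in MS. In Tph2-/- they were 0.784, 1.32 and 2.12 CPM in C and 0.380, 0.642 and 0.761 CPM in MS. In Tph2-/- the highest level of the 6 MS libraries in the fits lay only just below the lowest C level, and the groups overlapped in the other genotypes. The log2 difference was -0.81 (SE 0.19, edgeR unadjusted p = 4.24e-05, adjusted p = 0.0812). With all 48 libraries it was -0.83 (SE 0.19, edgeR adjusted p = 0.0498), the 1 narrow locus that passed under any alternative.

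GE1 had its smallest p 48892 bp from the pseudogene Gm46507 (chr15:60246446-60246900). There the lowest, median and highest levels were 0.529, 0.896 and 1.61 CPM in Tph2+/+ C and 1.12, 1.81 and 2.63 CPM in Tph2+/+ MS, and 1.04, 1.97 and 2.48 CPM in Tph2+/- C and 0.763, 1.06 and 2.38 CPM in Tph2+/- MS. MS libraries were mostly higher in Tph2+/+ and mostly lower in Tph2+/-, with overlap. The log2 difference of the effects was -1.42 (SE 0.38, edgeR unadjusted p = 2.98e-04, adjusted p = 1.0).

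Within single genotypes, the smallest p for MS in Tph2+/+ lay in an intron of Pkd1l1, a polycystin family gene (chr11:8940388-8940836). The levels there were 0.367, 0.550 and 1.14 CPM in C and 0.911, 1.17 and 2.19 CPM in MS (lowest, median and highest). The log2 difference was 1.08 (SE 0.33, edgeR unadjusted p = 0.00131, adjusted p = 0.749), and the groups overlapped between 0.911 and 1.14 CPM.

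For MS in Tph2+/- it lay 25624 bp from Fgf14, which encodes an intracellular modulator of voltage-gated sodium channels (chr14:124702751-124703199). The levels were 0.870, 1.70 and 3.03 CPM in C and 0.191, 0.522 and 1.68 CPM in MS. MS was lower, with overlap, by a log2 difference of -1.37 (SE 0.37, edgeR unadjusted p = 3.57e-04, adjusted p = 1.0).

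For MS in Tph2-/- it lay 50948 bp from the pseudogene Gm38291 (chr3:6559785-6560257). The levels were 0.510, 1.04 and 2.36 CPM in C and 0, 0.321 and 0.846 CPM in MS. The log2 difference was -1.62 (SE 0.43, edgeR unadjusted p = 2.78e-04, adjusted p = 0.631). In 2 alternatives p was above the limit of 0.01: limma voom (unadjusted p = 0.0102) and leaving out S18 to S26 (-1.20, edgeR unadjusted p = 0.0210). The latter left only replicates 5, 6 and 8 in Tph2-/- MS.

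**Figure D5:**
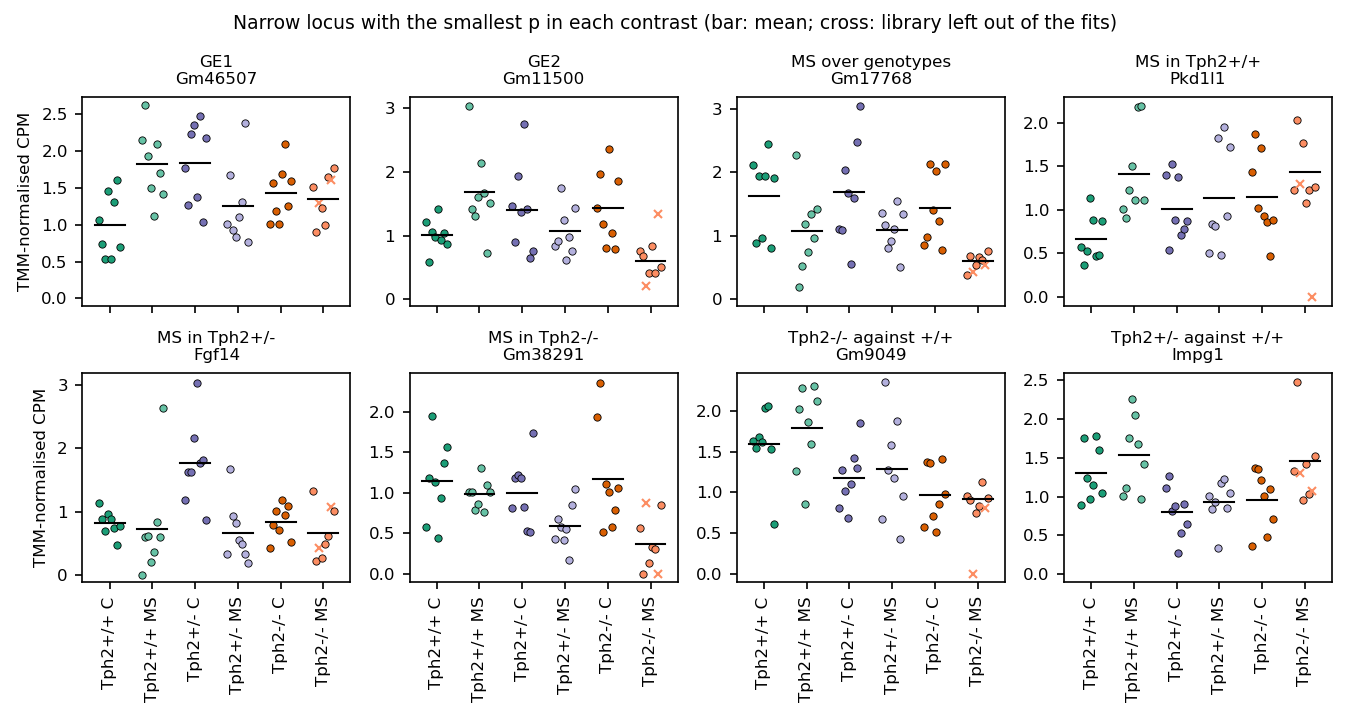
Level in CPM by library and group at the narrow locus with the smallest p in each of the 8 contrasts. Points of the compared groups overlap at most of these loci. In the libraries of the fits, Tph2-/- MS at Gm17768 stays at or below 0.761 CPM, just under the 0.784 CPM where Tph2-/- C starts.

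For the genotypes, Tph2-/- against Tph2+/+ had its smallest p 516 bp from the predicted gene Gm9049 (chr10:118354621-118355094), a locus with 8 other copies in the assembly. The levels were 0.608, 1.63 and 2.07 CPM in Tph2+/+ C and 0.859, 1.94 and 2.31 CPM in Tph2+/+ MS, against 0.506, 0.914 and 1.41 CPM in Tph2-/- C and 0.747, 0.917 and 1.13 CPM in Tph2-/- MS. Tph2-/- was lower in both rearing conditions, with overlap, by a log2 difference of -0.84 (SE 0.21, edgeR unadjusted p = 1.61e-04, adjusted p = 0.756). Tph2+/- had medians between these, 1.18 CPM in C and 1.23 CPM in MS.

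Gm9049 lies 3.17 Mb from Tph2 (chr10:115078641-115185022), on the chromosome that carries the inactivated allele. Within 10 Mb of Tph2 there were 37 narrow loci, of which 2 were called, Gm9049 and a coding exon of Tmem19, a transmembrane protein gene 0.163 Mb from Tph2 (chr10:115347568-115348026), where the log2 difference was 0.56 (SE 0.19, edgeR unadjusted p = 0.00305, adjusted p = 1.0). Of all 1900 loci in this window 51 were called (2.68%). A sequence difference linked to the allele cannot be told apart from a difference in methylation by these counts.

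Tph2+/- against Tph2+/+ had its smallest p in an intron of Impg1, a gene for a proteoglycan of the matrix around photoreceptors (chr9:80401706-80402120). The levels were 0.896, 1.19 and 1.78 CPM in Tph2+/+ C and 0.973, 1.55 and 2.25 CPM in Tph2+/+ MS, against 0.276, 0.848 and 1.27 CPM in Tph2+/- C and 0.332, 0.972 and 1.22 CPM in Tph2+/- MS. The log2 difference was -0.69 (SE 0.22, edgeR unadjusted p = 0.00166, adjusted p = 1.0), with overlap.

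At the CCCTAA loci the calls changed with the Tph2-/- MS libraries in the fit. In the fits, which still held Tph2-/- MS replicate 2, 4 of the 8 loci were called in at least 1 contrast, 3 of them higher for MS in Tph2-/- (in any contrast 7.52% of all loci and 5.27% of narrow loci were called, and for MS in Tph2-/- 1.48% of all loci). The log2 difference was 1.35 at Lama1 (SE 0.48, edgeR unadjusted p = 0.00702, adjusted p = 0.661) and 2.30 at Ppp2r2b (SE 0.70, edgeR unadjusted p = 0.00144, adjusted p = 0.638). With all 48 libraries 6 of the 8 were called for MS in Tph2-/-, and none was when replicate 2 was left out instead of replicate 7, beside replicate 3. The differences for MS in Tph2-/- were then 1.06 at Lama1 (SE 0.45, edgeR unadjusted p = 0.0222), 1.71 at Ppp2r2b (edgeR unadjusted p = 0.0224) and 1.22 at 4921504E06Rik (edgeR unadjusted p = 0.0284), positive but with p above the limit of 0.01. Lama1 was still called for MS over genotypes, at 0.89 (SE 0.26, edgeR unadjusted p = 0.00116, adjusted p = 0.226).

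Narrow loci fell in few of the genes listed for this tissue. Of the 32 loci in these genes 2 were called, near the 5.27% of narrow loci and 7.52% of all loci called in at least 1 contrast. The serotonin system list of 19 genes had 2, in introns of Tph2 itself and of Htr3a, a subunit of the serotonin-gated ion channel. The Tph2 locus (chr10:115170028-115170525, 21 CpGs) averaged 1.21 CPM, and its medians lay between 0.987 CPM in Tph2+/- MS and 1.45 CPM in Tph2+/+ MS, with groups that overlapped throughout. Its log2 difference was -0.17 (SE 0.24) for Tph2-/- against Tph2+/+ (edgeR unadjusted p = 0.476, adjusted p = 1.0).

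The stress axis list of 14 genes had 1 narrow locus, in an intron of the corticotropin-releasing hormone receptor gene Crhr1 (1.13 CPM). Among 15 neuropeptide and neurotrophin genes it was 2, in coding exons of Tac1, the precursor of substance P (1.30 CPM), and of Ntrk2, the receptor of brain-derived neurotrophic factor (0.991 CPM). Among 24 synaptic adhesion genes 13 held 15 narrow loci, with the highest level in a coding exon of Csmd1 (1.42 CPM) and the lowest at Lrp1b. None of these 18 loci was called, a number too small to set apart from the 5.27% of all narrow loci called in at least 1 contrast.

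Among 47 GABA and glutamate receptor genes 8 held 9 narrow loci, all in introns, with the highest level in the GABA-B receptor gene Gabbr2 (1.49 CPM). The locus in Grik1, a kainate receptor subunit (chr16:88283604-88284086), named after its values were seen, was called for MS in Tph2+/-. Its levels were 0.884, 1.47 and 2.76 CPM in C and 0.465, 0.732 and 1.38 CPM in MS, with overlap. The log2 difference was -0.93 (SE 0.32, edgeR unadjusted p = 0.00515, adjusted p = 1.0).

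Among 16 genes of the DNA methylation machinery 2 held 3 narrow loci, in Tet1 and Tet3, both encoding enzymes that oxidise 5-methylcytosine. The locus in a coding exon of Tet3 (chr6:83376667-83377143), named after its values were seen, had levels of 0.649, 0.998 and 3.18 CPM in Tph2+/+ C and 0, 0.505 and 1.84 CPM in Tph2+/+ MS, and of 0.551, 0.855 and 1.69 CPM in Tph2+/- C and 0.839, 1.57 and 2.36 CPM in Tph2+/- MS. MS was lower in Tph2+/+ by a log2 difference of -1.14 (SE 0.37, edgeR unadjusted p = 0.00246, adjusted p = 0.749). GE1 was 1.76 (SE 0.50, edgeR unadjusted p = 7.19e-04, adjusted p = 1.0), with all 4 groups overlapping.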

How the data were processed

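MBD sequencing was done on genomic DNA from the amygdala of 48 mice, 1 library each. Per the labels and the study's methods, the authors sheared the DNA by sonication, pulled down methylated fragments by an MBD, read pairs of 50 bp with a planned depth of 20 Mreads, mapped them with Bowtie2 2.1.0 to GRCm38, called peaks with MACS, and counted reads in merged peaks with DiffBind 2.0.9. The deposited values are raw read counts per locus. How duplicates were treated is not given in the sources used here. Since capture holds CpG-rich fragments best, a change in its stringency shifts counts by CpG content.

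The study left out 2 unnamed Tph2-/- MS libraries of low counts, and here those with the lowest totals (replicates 3 and 7) were left out of the fits. Counts were tested with edgeR 4.0.16 in R 4.3.3 (TMM, trended dispersion, robust quasi-likelihood fit, 1 term per group, Benjamini-Hochberg adjustment over 187695 loci, no low-count filter). All 2920 narrow loci were tested. Levels are CPM on TMM-scaled totals, SD values use log2(CPM + 0.5), and both rest on 46 libraries unless stated. The total per library was 7.72 to 14.1 Mcounts, and intervals from counts alone cover counting error only. The fit was tested on simulated data for Tph2-/- against Tph2+/+ over 187695 loci, with changes put into narrow loci only. At the limits of the study it called 96 of 100 narrow loci with a log2 change of 1 and 38 of 100 with a change of 0.5. Of the loci of all widths with no change it called 1782 of 187495, more than the 1404 of 187695 called in the deposited counts for this contrast.

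Genes, exons and untranslated regions came from GENCODE, sequence and repeat masking from RefSeq GRCm38, and copies from minimap2 2.31-r1302. The members and gene lists were chosen with earlier results of these data known. Named loci are, among narrow loci, the one with the smallest p in each contrast, any with an adjusted p under 0.05, the 3 narrowest, the 3 highest and lowest in CPM per kb, the 3 most and least variable, and the highest of each gene list. The CCCTAA and CA motifs, the loci that hold CCCTAA, Tmem19, Htr3a, Ntrk2, Gm20388, Fgfr2, Tet3, Grik1 and Aph1a were chosen after the values were seen. Nothing in the sources used here says that the mice of a group came from separate litters, so p-values measure the spread between these mice. The sequences of some loci are not reported here.

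Alternatives were limma 3.58.1 voom, DESeq2 1.42.0 and its size factors, library totals without TMM, offsets fitted by loess (span 0.3) to abundance or to CpG density, a low-count filter, all 48 libraries, other left-out libraries, leaving out S18 to S26, a term for S42 to S48, the replicate number as a block, other width limits and another pseudocount.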

Additional observations from a re-analysis of the deposited data

Results flagged for a closer look

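In 19 of the 204 groups of values examined (9.31%), 1 library stood apart from the rest of its group by more than Dixon's 95% limit. Chance passes this limit in about 1 in 20 groups. All 19 were at the 32 named narrow loci, whose levels by group were most but not all of the 204. Many of these loci were named for their spread or their level, so this is not a share over all narrow loci.

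The library that stood apart most often was Tph2-/- MS replicate 2. Its level was 7.46 CPM at Lama1, where the other 5 libraries in the fits had 1.02 to 2.51 CPM. It was 3.62 CPM at Tmcc3os (others 0 to 1.02 CPM), 3.39 CPM near AC139334.2 (others 0.167 to 0.679 CPM) and 2.94 CPM at both Lrp1b (others 0 to 0.543 CPM) and Ppp2r2b (others 0.0846 to 0.759 CPM). All of these carry CCCTAA repeats. At Impg1, without such repeats, it had 2.49 CPM (others 0.951 to 1.52 CPM).

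Among Tph2+/+ C libraries, replicate 1 was high at Lrp1b with 1.79 CPM (others 0 to 0.353 CPM). Replicate 3 was high at Tet3 with 3.18 CPM (others 0.649 to 1.79 CPM) and near Gm22336 with 3.53 CPM (others 1.46 to 2.28 CPM). Replicate 8 was high at Btrc with 2.00 CPM (others 0.529 to 1.20 CPM) and low near Gm9049 with 0.608 CPM (others 1.53 to 2.07 CPM). Among Tph2+/+ MS libraries, replicate 1 was high at Aph1a with 3.29 CPM (others 0.373 to 1.70 CPM), replicate 3 at Tet3 with 1.84 CPM (others 0 to 0.810 CPM) and replicate 8 near Fgf14 with 2.63 CPM (others 0 to 0.839 CPM).

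Among Tph2+/- C libraries, replicate 7 was high near Cyp3a41b with 3.12 CPM (others 1.10 to 2.04 CPM), replicate 8 was high at Crhr1 with 2.61 CPM (others 0.650 to 1.47 CPM) and replicate 1 was low near Nedd8 with 0.516 CPM (others 1.22 to 1.45 CPM). Tph2+/- MS replicate 4 was high near Cyp3a41b with 2.32 CPM (others 0.929 to 1.43 CPM) and low at Impg1 with 0.332 CPM (others 0.839 to 1.22 CPM). Each of these stood apart at 1 or 2 loci.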

How the results depend on the processing

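DESeq2 called more narrow loci than edgeR in every contrast: 25 for GE1, 27 for GE2, 83 for MS over genotypes, 58 for MS in Tph2+/+, 55 for MS in Tph2-/-, 41 for Tph2-/- against Tph2+/+ and 30 for Tph2+/- against Tph2+/+, and 25 for MS in Tph2+/-, within 1.5 times of edgeR's 17. limma voom called 26 for GE1 and 14 for MS in Tph2-/-, and total counts alone 62 for MS in Tph2+/+. All 48 libraries gave 52 for MS in Tph2-/- and 1 locus with an adjusted p under 0.05. Leaving out S18 to S26 gave 25 for GE2, 27 for MS over genotypes and 15 for MS in Tph2-/-, with only replicates 5, 6 and 8 in Tph2-/- MS. The cause of these shifts was not tested. The other alternatives kept each count within 1.5 times. Of 96 values of the 8 loci with the smallest p, over 12 alternatives, 94 stayed past the limits in the same direction, 2 (both Gm38291) did not, and 0 reversed. Adjusted p ranged over the alternatives from 0.0498 to 0.558 for Gm17768, from 0.0993 to 1.0 for Gm38291, from 0.133 to 1.0 for Gm9049, from 0.394 to 1.0 for Gm11500 and from 0.435 to 1.0 for Pkd1l1.

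With the replicate number as a block, the counts were 14 for GE1, 11 for GE2, 55 for MS over genotypes, 36, 16 and 29 for MS in Tph2+/+, Tph2+/- and Tph2-/-, 19 for Tph2-/- and 18 for Tph2+/- against Tph2+/+, and 0 at an adjusted p under 0.05. The log2 differences with the block were -1.45 at Gm46507, -1.998 at Gm11500, -0.82 at Gm17768, 1.09 at Pkd1l1, -1.39 at Fgf14, -1.64 at Gm38291, -0.82 at Gm9049 and -0.69 at Impg1. Same-numbered libraries did not deviate together (median r = 0.00554 over 110 pairs, range -0.0640 to 0.106), and 5 of 46 libraries correlated best with their own number, so the numbers were not taken to pair mice.

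A limit of 450 bp gave 2.84 CPM per kb and a share of 0.117% of counts, and a limit of 550 bp a share of 0.906%. Leaving loci with over 0.5% of counts out of the total gave a share of 0.513%. A pseudocount of 0.1 gave a median SD of 0.583. Leaving out Tph2-/- MS replicates 2, 3 and 7, chosen after the data were seen, gave 0.421. In the simulation of Tph2-/- against Tph2+/+ the changes were put into narrow loci only, and the fit and adjustment ran over loci of all widths. There 67 of 100 changes of 1 and 3 of 100 changes of 0.5 on the log2 scale passed an adjusted p of 0.05.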
